A study of Mus musculus with 24 samples.

Results

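Mouse embryonic stem cells in which overexpressed wild-type CTCF stood beside overexpressed mutated CTCF, both after addition of IAA, are described here: 2 ATAC-seq libraries of each line, 4 of the 24 libraries of the series. They were taken by their labels (oeCTCFwt_IAA and oeCTCFmut_IAA). A differing site was one with a peak in both libraries of one line and in neither library of the other. Of 140819 sites with a peak in at least 2 of the 4 lists, 4385 were called in the wild-type line alone, which is 3.11% of the sites tested, and 4055 in the mutated line alone, which is 2.88%.

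CTCF is a zinc-finger protein that binds a long asymmetric DNA motif, keeps the flanking nucleosomes away and stops the cohesin ring as it extrudes chromatin loops. Bound sites therefore appear in ATAC-seq, in which a transposase cuts open DNA, as narrow accessible peaks, and many of these close when CTCF is removed. In embryonic stem cells most CTCF sites lie away from promoters, whose accessibility depends on other factors.

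All 4 libraries came from E14 mouse embryonic stem cells whose CTCF carries an auxin-inducible degron (AID), a tag by which the auxin IAA leads to degradation of the protein. Both lines received IAA for 12 h. The genotypes are given as CTCF AID with overexpressed wild-type CTCF and CTCF AID with overexpressed mutated CTCF. The labels do not state what the mutation changes, which promoter drives the overexpressed protein, whether it also carries the degron, or whether a line is 1 clone. The amount of CTCF protein was not measured in these files. The growth protocol gives serum-free medium with LIF, the MEK inhibitor PD0325901 and the GSK3 inhibitor CHIR99021. A CTCF AID control line without an overexpressed CTCF, with 2 libraries without IAA and 2 after 12 h of IAA, is used as the reference for sites that need CTCF. The labels do not say that replicates are separate cultures, so the spread between them may be technical.

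The strongest sites with a CTCF motif that had a peak in the wild-type line alone are shown first, as the clearest examples of this group. They are printed 5′ to 3′ on the strand of the motif, from the GRCm38 reference, with the 14 bases of the motif in capitals. Each carries at most 1 mismatch to the CTCF consensus.
Plcl1 intron site, chr1:55736540-55736593, minus strand: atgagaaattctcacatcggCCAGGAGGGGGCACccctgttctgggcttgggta
Ywhah site, chr5:33033406-33033459, minus strand: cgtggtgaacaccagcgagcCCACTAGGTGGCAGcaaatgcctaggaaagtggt
Miga1 intron site, chr3:152315794-152315847, minus strand: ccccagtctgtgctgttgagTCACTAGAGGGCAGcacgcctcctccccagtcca
Psma1 site, chr7:114281827-114281880, minus strand: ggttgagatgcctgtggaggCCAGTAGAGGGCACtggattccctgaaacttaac
Pdcd1 site, chr1:94079289-94079342, minus strand: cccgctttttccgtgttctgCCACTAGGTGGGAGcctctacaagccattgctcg
Spi1 exon site, chr2:91115236-91115289, plus strand: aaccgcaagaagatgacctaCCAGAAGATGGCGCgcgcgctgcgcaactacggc
The sites of the mutated line alone are given in the same way.
Ankrd33b intron site, chr15:31309680-31309733, plus strand: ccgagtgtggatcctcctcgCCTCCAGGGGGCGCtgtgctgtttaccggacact
Eif2ak4 intron site, chr2:118463105-118463158, minus strand: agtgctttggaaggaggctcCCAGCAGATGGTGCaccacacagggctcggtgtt
Beside the Zfp39 intron site, chr11:58894597-58894650, minus strand: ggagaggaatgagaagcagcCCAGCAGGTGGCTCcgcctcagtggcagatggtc
Arhgap32 site, chr9:32272190-32272243, plus strand: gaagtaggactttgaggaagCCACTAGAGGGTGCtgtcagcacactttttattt
In the wild-type set, the Ywhah and Psma1 sites carried the motif without mismatch. All 4 sites of the mutated line had 1 mismatch. A motif was counted within 250 bp of the centre of a site and need not lie in its peaks: the one beside the Zfp39 intron site lay 156 bp from the centre and outside the merged peaks, which span 58894675 to 58895023.

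Strength is given as the percentile of a peak within its own list by the authors' −log10 p, where 100 is the strongest peak. The intron site of Plcl1, which encodes a phospholipase C-like protein without catalytic activity, was at percentile 68.6 and 68.2 in the wild-type line (replicates 1 and 2) and had no peak in the mutated line. In the control line it was at 71.9 and 72.7 without IAA, and with IAA at 1.69 in replicate 1 with no peak in replicate 2. The Ywhah site, 14581 bp from the start of this 14-3-3 adaptor gene, was at 66.5 and 64.5 in the wild-type line. Without IAA the control line had it at 72.8 and 70.2, and with IAA in neither library. The Psma1 site, near a gene of the proteasome core, was at 61.5 and 64.2 in the wild-type line, at 74.9 and 79.5 in the control line without IAA, and had no peak with IAA. The Miga1 site, in an intron of a gene of mitochondrial fusion, stood at 70.4 and 63.3, and the Pdcd1 site, near the gene of an immune checkpoint receptor, at 72.2 and 60.6. The 6th site lay in a coding exon of Spi1, which encodes the blood-cell factor PU.1, at 65.1 and 59.9. Its motif also holds AAGATGGCG, the letters searched below for YY1. It had a peak in both libraries of CTCF AID cells labelled as kept in serum after 12 h of IAA. All 6 sites had a peak in both control libraries without IAA, and 5 of them had none in the control libraries with IAA. The next 2 sites by strength, whose sequences are not shown, were at percentiles of 59.8 and 61 each. One, nearest Gm37685, had a peak in both control libraries without IAA and neither with IAA. The other, in an intron of Ppp1r13b, had a peak in only 1 of the 2 without IAA.

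Of the 4 sites of the mutated line alone, 1 shared this pattern. The Ankrd33b intron site was at 78.9 and 73 in the mutated line, and it had a peak in all 4 control libraries, from 63.3 to 77. The site in an intron of Eif2ak4, the amino-acid-sensing kinase GCN2, was at 49.6 and 45.1 and had no peak in the control line without IAA. The intron site of the zinc-finger gene Zfp39 was at 44.8 and 47.8, and its control peaks were stronger with IAA (26.5 and 36.8) than without (no peak and 1.93). The 4th, near Arhgap32, had a peak in both control libraries without IAA (59.5 and 59.9) and in neither with IAA.

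The 4 peak lists held 155087 and 131432 peaks in the wild-type line and 146703 and 130363 in the mutated line (replicates 1 and 2). Median peak width was 283 and 393 bp in the wild-type line and 344 and 422 bp in the mutated line, so the peaks of the mutated line were wider at each replicate number. Read depth is not stated in the lists. The replicate numbers also differed: both libraries numbered 1, and neither numbered 2, called 7776 sites, which is more than either set of differing sites, while both numbered 2, and neither numbered 1, called 2374, which is fewer. A peak on chromosome 1 from 24613046 to 24613191, the strongest of the wild-type replicate 1 list, was present in both libraries numbered 1 and in neither numbered 2. In the control line it was in both libraries without IAA and, with IAA, in replicate 2 but not in replicate 1. It thus did not follow the replicate number there. Peaks shared by 2 lists were 67.6% for the wild-type pair, 68.3% for the mutated pair and 65.8% to 69.6% between lines. At sites called in all 4 lists, the Spearman correlation of the percentiles, across sites and as a description, was 0.93 for the wild-type pair, 0.929 for the mutated pair and 0.91 to 0.924 between lines. By shared peaks the libraries of one line were thus not set apart from the other line, and by the ranks of shared sites they were slightly closer to each other. All 8 of 8 embryonic stem cell marker promoters held a peak in all 4 libraries. The fibroblast, endoderm, neural and trophoblast promoters fixed as markers of other cells were also largely open (from 3 of 6 to 5 of 5), and an open promoter does not show expression.

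At the Ctcf locus, the overexpressing lines differed from the control line. Peaks lay on the coding exons of Ctcf in all 4 libraries, 3 and 2 in the wild-type line and 2 and 2 in the mutated line, and none lay there in the 4 control libraries. The exons were numbers 1 and 9 of 10 coding exons in all 4 libraries, with number 7 in wild-type replicate 1. Whether they come from the overexpressed copies was not tested.

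Peaks with a CTCF motif were a larger share of the lists of the wild-type line than of the mutated line. A peak was counted when the CTCF consensus, on either strand and with at most 1 mismatch, lay within 250 bp of its summit. The share was 5.4% and 5.22% in the wild-type line and 4.78% and 4.82% in the mutated line, with no overlap. Both lines lay between the control line without IAA (6.61% and 6.5%) and with IAA (3.31% and 3.29%). Permuted consensuses were found in 0.747% to 0.813% of peaks in these 8 lists. The difference was 0.505 percentage points (5.31 ± 0.126 against 4.8 ± 0.0289, SD, n = 2 each), which is larger than the spread between replicates of 0.13 points. The exact permutation test gave p = 0.33, two-sided, the smallest that 2 libraries against 2 can give, so no such comparison here can reach 0.05.

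**Figure D1:**
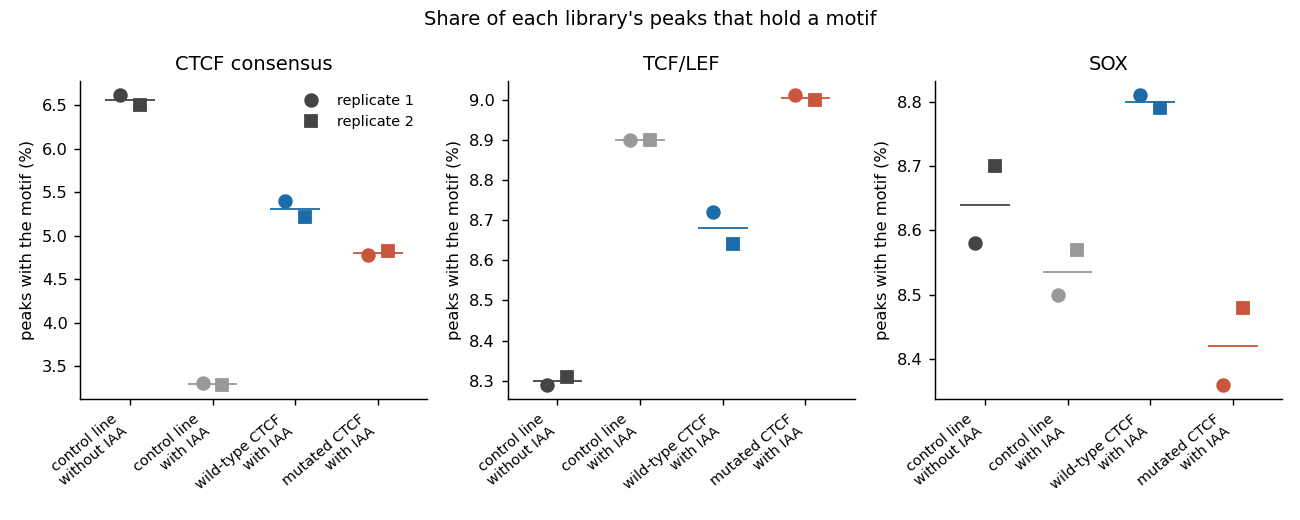
Share of peaks (%) that hold the CTCF consensus, the TCF/LEF motif or the SOX motif, for 8 libraries in 4 groups; circles are replicate 1, squares replicate 2 and lines the means, and the axes do not start at 0. The 2 wild-type libraries lie above the 2 mutated ones for CTCF (5.22% and 5.4% against 4.78% and 4.82%) and SOX, and below them for TCF/LEF.

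Single sites with the motif were called more often in the wild-type line alone than in the mutated line alone. Of 7333 tested sites with the motif, 381 (5.2%) were called in the wild-type line alone and 125 (1.7%) in the mutated line alone. Of 133486 sites without it, 4004 (3%) and 3930 (2.94%) were called in one line alone, which is near the share of all sites in both directions. With a motif free of mismatch the shares were 6.1% and 1.86% of 1884 sites, and with 1 mismatch 4.88% and 1.65% of 5449. Sites whose best hit had 2 mismatches were at 2.71% and 2.5% of 22435, below the shares of all sites in both directions. A motif within 50 bp of the centre of the site gave 6.52% and 1.35% of 3928 sites, and one at 51 to 250 bp gave 3.67% and 2.11% of 3405. The strand of the motif was plus at 180 of the 381 sites (47.2%) and at 51 of the 125 (40.8%), beside 49.9% of all motif sites tested.

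**Figure D2:**
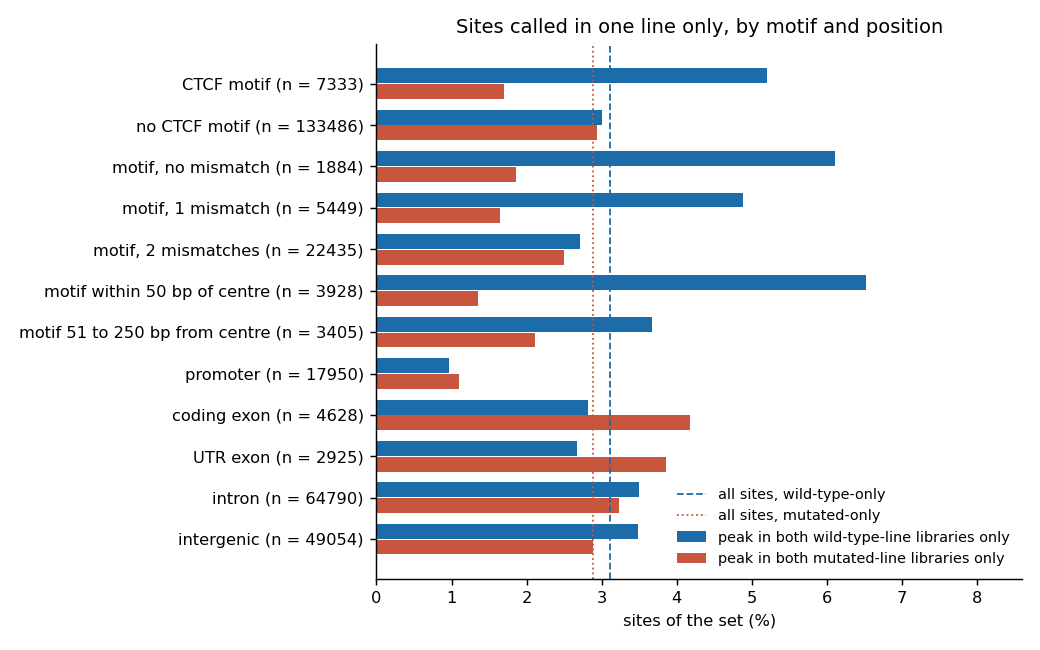
Percentage of tested sites with a peak in both libraries of one line and neither of the other (x axis), for sets of sites by motif and by annotation; dashed and dotted lines mark all sites (3.11% and 2.88%). Bars of the wild-type line are longer at motif sites (5.2% against 1.7%) and bars of the mutated line at coding exons (4.17% against 2.81%).

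The direction at motif sites was the same within each replicate number. Between the libraries numbered 1, 1828 motif sites (21.1%) had a peak in the wild-type line alone and 748 (8.62%) in the mutated line alone, beside 16% and 14.5% of the sites without motif. Between those numbered 2 the counts were 1436 (18.7%) and 991 (12.9%), beside 15.9% and 16.1%. These shares, and those with 1 library left out, are of sites with a peak in at least 1 library used, while tested sites needed 2. With 1 library left out, the lone library alone called a site for its line, which raises that line's share by construction. The shares of motif sites were then 9.5% wild-type-only and 5.74% mutated-only without wild-type replicate 1, 16.1% and 2.75% without wild-type replicate 2, 9.8% and 4.99% without mutated replicate 1, and 6.39% and 5.64% without mutated replicate 2. For sites without motif the same pairs were 7.93% and 6.36%, 11.4% and 4.33%, 6.65% and 8.25%, and 4.17% and 10.1%. The contrast with sites lacking the motif moved with the rule for overlap. When a peak had to cover at least 50% of a site, motif sites gave 5.2% and 4.46%, and sites without motif 3.41% and 5.42%. The part of the wider peaks of the mutated line in this was not tested.

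The differing sites were mostly weak peaks. The lower of the percentiles of a line's 2 libraries had a median of 14.6 at sites of the wild-type line alone and 10.4 at sites of the mutated line alone, beside 56.7 at sites called in all 4. Above percentile 50 lay 114 wild-type-only and 34 mutated-only sites. With the motif the medians were 25.4 and 11.8. The merged sites had median widths of 260 and 326 bp, against 648 bp for sites in all 4 lists, which join the peaks of more lists and are wider by construction. A site absent from a list is below that list's threshold, which does not show that it was closed. Next to the rule, 10971 sites had a peak in both wild-type libraries and 1 mutated library, and 6.63% of them held the motif, beside 8.69% of the 4385 inside it. In the other direction 10530 sites had a peak in both mutated libraries and 1 wild-type library, with the motif in 4.74%, beside 3.08% of the 4055.

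Promoters changed little between the lines. Of 17950 sites within 500 bp of a transcription start, 15959 (88.9%) were called in all 4 libraries, 174 (0.969%) in the wild-type line alone and 197 (1.1%) in the mutated line alone. The promoter share of peaks was 12.9% ± 0.842 in the wild-type line and 13% ± 0.673 in the mutated line (SD, n = 2 each), a difference of -0.172 points within a spread of 1.08 (exact permutation p = 0.67, two-sided). Its sign turned in lists cut to equal length (0.0449 points), without wild-type replicate 1 (0.423) and without mutated replicate 2 (0.304). Motif sites at promoters followed with 13 wild-type-only and 8 mutated-only of 927. Away from promoters the wild-type-only count of motif sites was above the mutated-only count in each of these classes: in introns 165 and 59 of 2970 motif sites, between genes 176 and 48 of 2913, in coding exons 12 and 5 of 264, and in UTR exons 11 and 3 of 184. Motif sites over 100000 bp from any annotated start had the highest wild-type-only share, 21 of 178 (11.8%), with 5 mutated-only. All 5260 sites of that distance class were also above nearer classes, with 4.54% wild-type-only.

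Exons leaned towards the mutated line where no motif was present. Of 4364 coding-exon sites without motif, 188 (4.31%) were mutated-only and 118 (2.7%) wild-type-only, and of 2741 UTR-exon sites 110 (4.01%) and 67 (2.44%). The share of all peaks with the summit in a coding exon was 3.42% ± 0.149 in the mutated and 3.28% ± 0.118 in the wild-type line (SD, n = 2 each). That difference lay within the spread of 0.191 points and had opposite signs in the 2 replicate numbers. For UTR exons the share was 2.14% in both mutated libraries and 2.08% and 2.02% in the wild-type line, with no overlap. The difference of -0.0933 points was beyond the spread of 0.0414 (exact permutation p = 0.33, two-sided). Mutated-only sites also held more CpG dinucleotides than wild-type-only sites (a mean of 8.15 against 6.65 in the fixed window around the centre) and more GC (median 49.1% against 47.3%), while both held fewer CpG than sites in all 4 lists (12.5). By chromosome, leaving out Y with 46 sites, the wild-type-only share ran from 2.78% (chromosome 11) to 3.98% (chromosome 16) and the mutated-only share from 2.29% (chromosome X) to 3.21% (chromosome 2).

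The control line gives the calls at the differing sites with CTCF present and with CTCF degraded without a replacement. Its libraries were not used to choose the sites. They held 132912 and 139221 peaks without IAA and 120137 and 128794 with IAA. The part of the shorter lists in the lower shares with IAA was not tested. Of the 381 motif sites called in the wild-type line alone, 76.1% and 77.7% had a peak in the control line without IAA and 9.97% and 12.9% with IAA. Of the 125 motif sites of the mutated line alone, 54.4% and 56.8% had a peak without IAA and 16.8% and 17.6% with IAA. In full, 206 of the 381 (54.1%) had a peak in both control libraries without IAA and neither with IAA, as did 42 of the 125 (33.6%) and 1906 of all 7333 tested motif sites (26%). Strength differed between the sets as well, with the median lower percentiles of 25.4 and 11.8 given above, and its part in this difference was not tested.

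Without the motif, wild-type-only sites also had fewer peaks with IAA, while mutated-only sites did not. Of the 4004 called in the wild-type line alone, 42.3% and 48.2% had a peak in the control line without IAA and 29.7% and 35.3% with IAA. For the 3930 of the mutated line alone the order was turned, with 32% and 33.7% without IAA and 38.6% and 36.8% with IAA. Sites in both control libraries with IAA and neither without numbered 243 of the 3930 (6.18%) and 116 of the 4004 (2.9%), beside 2.01% of all tested sites without motif. The reverse pattern was held by 421 of the wild-type-only sites (10.5%) and 182 of the mutated-only sites (4.63%), beside 3.07%.

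In CTCF AID cells labelled as kept in serum, the wild-type-only motif sites also had fewer peaks with IAA. At 0 h of IAA, 46.7% and 40.4% of the wild-type-only motif sites had a peak, and at 12 h 7.35% and 7.61%. Motif sites called in all 4 overexpressing libraries were at 76.5% and 71.2% at 0 h and at 51.8% and 56.8% at 12 h, so they too had fewer peaks with IAA. The mutated-only motif sites were at 24% and 17.6% at 0 h and at 10.4% and 17.6% at 12 h, so that the 2 times overlapped. Without the motif, the wild-type-only sites were at 10.9% and 9.04% at 0 h and at 12.3% and 15.8% at 12 h, which is the opposite order to that in the control line. Other sites without motif rose too. Mutated-only ones were at 9.8% and 7.79% at 0 h and at 13.6% and 16.8% at 12 h. Those called in all 4 overexpressing libraries were at 49% and 44.2%, then at 52% and 57.2%. In the shluci libraries of the Chd8 set, which had no IAA, 44.1% and 46.5% of the wild-type-only and 34.4% and 43.2% of the mutated-only motif sites had a peak. In those of the Chd4 set, also without IAA, the shares were 36% and 20.5% against 27.2% and 16%, and they overlapped. Lists of these sets differ in length and peak width, so levels between sets are not compared.

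**Figure D3:**
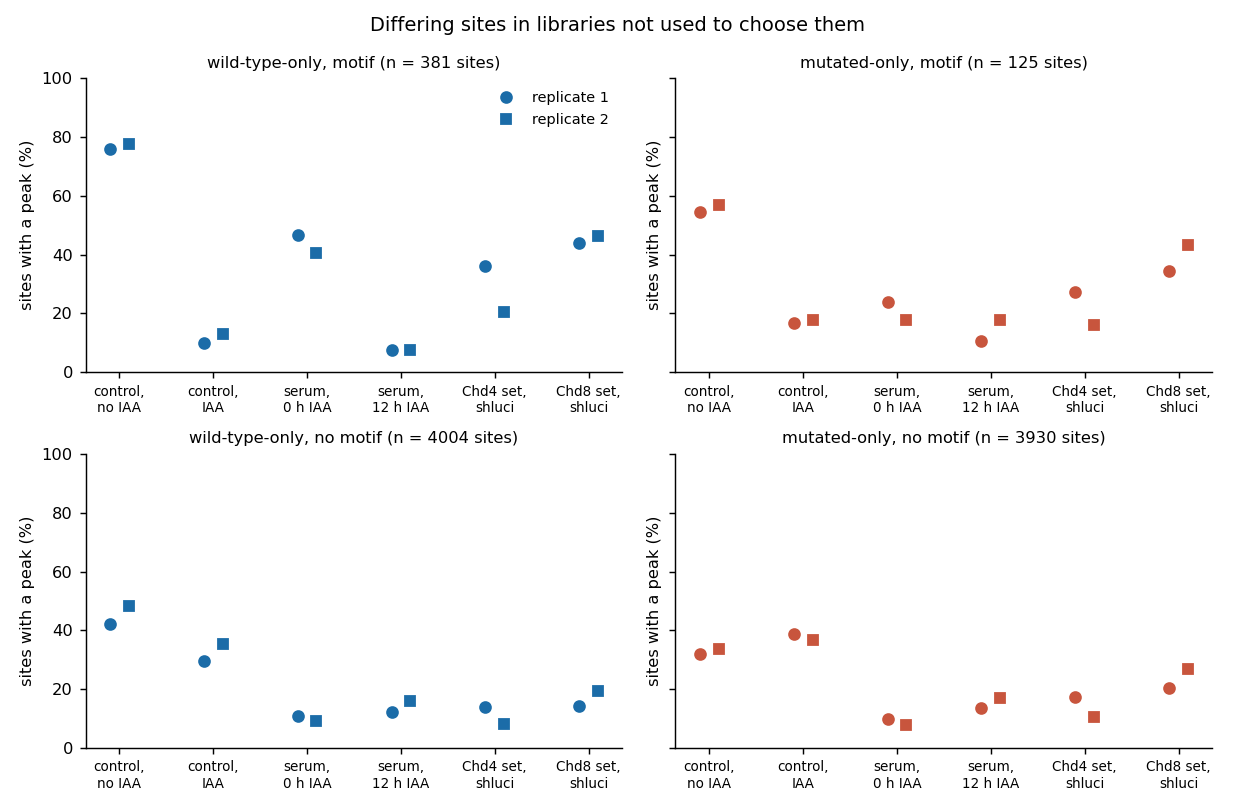
Percentage of differing sites that had a peak (y axis) in libraries not used to choose them, by group (x axis), with circles for replicate 1 and squares for replicate 2. Wild-type-only motif sites fall from 76.1% and 77.7% without IAA to 9.97% and 12.9% with IAA in the control line, and mutated-only sites without motif do not fall.

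The reverse view starts from the control line alone. There, 2815 motif sites had a peak in both libraries without IAA and in neither with IAA, and are called CTCF-dependent here. In the wild-type line 73.7% and 56.4% of them had a peak, and in the mutated line 55.8% and 46.7%. The groups did not overlap, but wild-type replicate 2 lay within 1 point of mutated replicate 1. They overlapped with peaks of −log10 q of at least 5, with at most 2 mismatches, and with the motif within 50 bp (differences of 14.2, 12.6 and 14.8 points). The difference of 13.8 points (65 ± 12.2 against 51.2 ± 6.46, SD, n = 2 each) equalled the spread between replicates of 13.8 points (exact permutation p = 0.33, two-sided). It was 17.9 points between the libraries numbered 1 and 9.73 between those numbered 2. It fell to 5.17 points without wild-type replicate 1, rose to 22.4 without wild-type replicate 2, stood at 9.24 without mutated replicate 2 and at 12.6 in lists cut to equal length, and was 4.91 when a peak had to cover at least 50% of the site. Of the 2815 sites, 770 (27.4%) had a peak in all 4 libraries and 342 (12.1%) in none. Both wild-type and neither mutated libraries had a peak at 204 (7.25%), and both mutated and neither wild-type at 48 (1.71%).

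In both lines a larger share of the strong sites than of the weak ones had a peak. The CTCF-dependent motif sites were divided into tertiles by the lower of their percentiles in the control line without IAA, with bounds at 35.9 and 54.3. In the weakest tertile 53.6% and 41.9% had a peak in the wild-type line and 39.6% and 35.8% in the mutated line. In the middle tertile these were 75% and 53.4% against 54.2% and 42.9%, and wild-type replicate 2 fell below mutated replicate 1. In the strongest tertile 92.9% and 74.5% stood against 74% and 61.8%. Of its 917 sites, 72 were called in both wild-type and neither mutated libraries and 8 the other way. Motif sites that kept their peak in all 4 control libraries had a peak in 98.3% ± 0.788 and 98% ± 1.14 of cases (SD, n = 2 each). These values are near the top of the scale, which leaves little room for a difference.

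The same selection without the motif gave a smaller difference in the same direction. At 6718 sites without motif that lost their peak in the control line, 63.3% and 45.2% had a peak in the wild-type line and 50.4% and 38.7% in the mutated line, a difference of 9.72 points within a spread of 15.2. Of these sites 30.1% held a hit with 2 mismatches, beside 16.9% of all sites without motif in the control lists, and 62.8% did in the strongest tertile. Motif sites exceeded those without motif by 10.4 and 11.2 points in the wild-type line and by 5.39 and 8.02 points in the mutated line. This excess differed by 4.08 points between lines, with a spread of 1.94 (exact permutation p = 0.33, two-sided). It was 2.05 points with peaks of −log10 q of at least 5 and -0.18 when a peak had to cover at least 50% of the site. Within tertiles of strength it was smaller than or near its spread: 2.29 points (spread 5.82) in the weakest, 1.69 (3.39) in the middle and -2.24 (4.09) in the strongest. Motif sites were stronger than the others in this selection (917 of 2815 against 653 of 6718 in the strongest tertile).

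**Figure D4:**
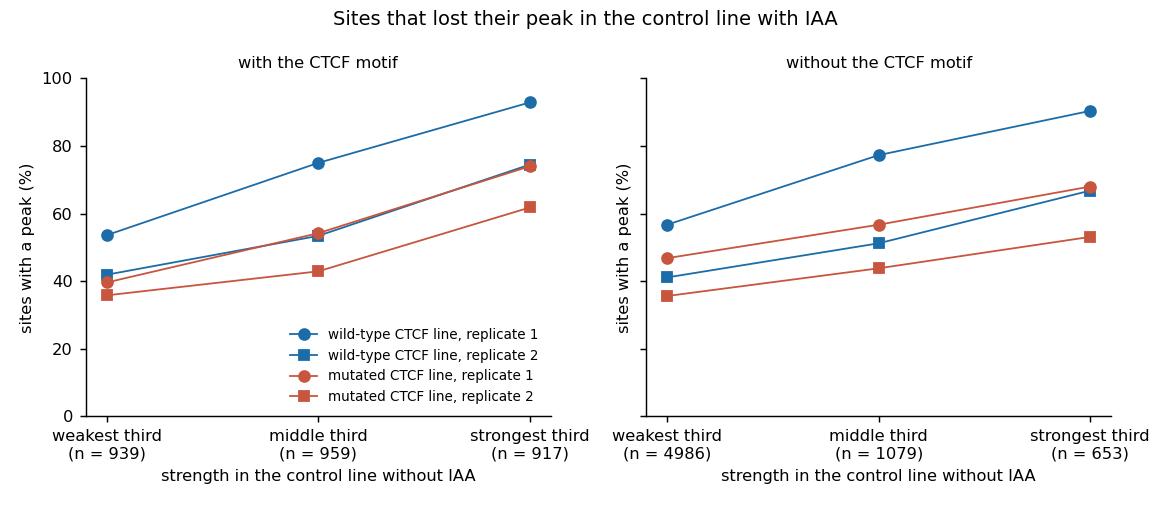
Percentage of sites lost with IAA in the control line that had a peak in each overexpressing library (y axis), by tertile of strength (x axis), with the CTCF motif at left and without at right. In every tertile wild-type replicate 1 is highest (92.9% for the strongest motif sites) and mutated replicate 2 lowest (61.8%).

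Sites that appeared with IAA in the control line were compared in the same way. At 3929 sites without motif that had a peak in both control libraries with IAA and neither without, 60.5% and 54% had a peak in the mutated line and 54.1% and 47% in the wild-type line. The lines overlapped. The difference was -6.66 points within a spread of 6.79 (exact permutation p = 0.67, two-sided), and it was -6.39 and -6.92 points at the 2 replicate numbers. Of these sites 232 were called in both mutated and neither wild-type libraries, and 110 the other way. Only 55 such sites held the motif. Of them 76.4% and 63.6% had a peak in the mutated line and 56.4% in each wild-type library, with no overlap. The difference of -13.6 points was beyond the spread of 9 (exact permutation p = 0.33, two-sided). It was -20 and -7.27 points at the 2 replicate numbers.

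The position of the summit at motif sites was nearer, by the median distance, in both overexpressing lines than in the control line with IAA, and did not differ between the lines beyond the spread. At 3291 motif sites with a peak in all 8 libraries, the median distance from the motif to the nearest summit was 54 and 61 bp in the wild-type line and 58 and 64 bp in the mutated line. It was 55 and 54 bp in the control line without IAA and 92 and 83 bp with IAA. The wild-type line overlapped the control line without IAA, and both mutated libraries lay above it by less than the distance to the libraries with IAA. Between the lines the medians differed by -3.5 bp (57.5 ± 4.95 against 61 ± 4.24, SD, n = 2 each), within a spread of 6.52 bp. The summit lay within 50 bp at 47.8% and 44% of sites in the wild-type line, 45.6% and 42.6% in the mutated line, 47.3% and 47.6% in the control line without IAA, and 33.1% and 35% with IAA. Within 20 bp the order was not the same: 10.1% and 8.78% in the wild-type line, 10.8% and 9.69% in the mutated line, 7.75% and 7.9% in the control line without IAA, and 9.15% and 9.91% with IAA. At the 4837 motif sites called in all 4 overexpressing libraries the medians were 43 and 49 bp against 45 and 50 bp. The difference of -1.5 bp was within the spread of 5.52 bp (exact permutation p = 0.67, two-sided) and turned to 1 bp without wild-type replicate 1.

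**Figure D5:**
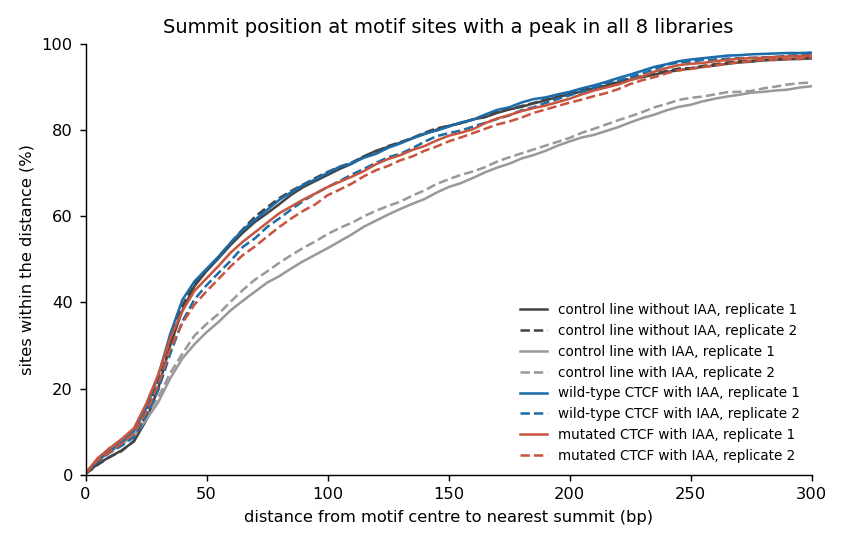
Cumulative percentage of 3291 motif sites (y axis) whose nearest summit lies within a distance of the motif centre (x axis, bp), for 8 libraries; solid lines are replicate 1 and dashed lines replicate 2. The 6 libraries of the control line without IAA and of both overexpressing lines have medians of 54 to 64 bp, and the 2 control libraries with IAA have medians of 83 and 92 bp, their curves running below the others from 50 bp on but not within 20 bp.

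Motifs of other factors were compared in the same way. Of 18 motifs searched within 250 bp of the summit on both strands, 6 were in a larger share of peaks in both wild-type libraries than in both mutated ones, 4 in a smaller share, and 8 overlapped. With 2 libraries a line, a lack of overlap is the exact permutation p of 0.33 again, and nothing is read from these counts. These shares differ by less than 0.5 percentage points, and many motifs share peaks and base composition. The letters ATCAAAG, read by TCF and LEF factors at the end of Wnt signalling, were in 8.72% and 8.64% of peaks in the wild-type line and in 9.01% and 9% in the mutated line. The control line had them in 8.29% and 8.31% without IAA and in 8.9% in each library with IAA. This order was the reverse of that of the CTCF motif in the control and wild-type libraries, while the mutated line lay above the control line with IAA. The letters were in 6.98% of wild-type-only sites (306) and 11.3% of mutated-only sites (459), beside 8.9% of all tested sites.

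SOX factors, which act with OCT4 in pluripotent cells, read AACAATG. These letters were in 8.81% and 8.79% of peaks in the wild-type line and in 8.36% and 8.48% in the mutated line, with the control line between them (8.58% and 8.7% without IAA, 8.5% and 8.57% with IAA). They were in 11.7% of wild-type-only and 7.03% of mutated-only sites, beside 8.71% of tested sites. ACATTCC, read by TEAD factors of the Hippo pathway, was in 8.97% and 8.88% of peaks against 8.67% and 8.65%. It was in 9.99% of wild-type-only and 7.13% of mutated-only sites, beside 8.83% of tested sites. TGANTCA, read by FOS and JUN, was in 15.6% and 15.4% of peaks against 15.3% and 15.2%. In the other direction stood GGGTGTGG of the KLF factors (8.48% and 8.38% against 8.65% and 8.61%), CACGTG of USF and MYC (9.23% and 9.4% against 9.52% and 9.66%) and CCAATCA of NFY (7.88% and 8.09% against 8.17% and 8.2%). For each of these motifs the exact permutation p was 0.33, two-sided, the smallest possible, before any adjustment over 18. GCGCATGCG of NRF1 was in 3 wild-type-only (0.0684%) and 22 mutated-only sites (0.543%), beside 0.675% of tested sites. AAGATGGCG of YY1 was in 31 (0.707%) and 67 (1.65%), beside 1.26%, so the wild-type-only share lay below that of tested sites and the mutated-only share above it. Over all peaks the libraries of the lines overlapped for both of these.

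At gene groups the counts of differing sites are given beside the 3.11% and 2.88% of all tested sites, of which 5.21% held the CTCF motif. Counts per group are small, and nothing is read from them about a group. Within 10 kb of 18 genes of naive pluripotency, 196 sites were tested, of which 148 were called in all 4 libraries, 5 in the wild-type line alone (2.55%) and 4 in the mutated line alone (2.04%). The former included an intron site of Tfcp2l1, a factor of the naive state, which had a peak in both control libraries without IAA and in neither with IAA. One of the 4 mutated-only sites, in Nr5a2, had the same control pattern. At 14 Wnt target genes, 1 of 209 sites was wild-type-only (0.478%) and 5 were mutated-only (2.39%). The single one lay near Axin2, a negative regulator of the pathway, at a lower percentile of 40.6, and the others lay at Lef1 (2 sites), Tcf7l1, Rnf43 and Znrf3, at 0.0787 to 31. At 31 imprinted genes 7 of 180 sites were wild-type-only (3.89%) and 5 mutated-only (2.78%). One of the 7 held the CTCF motif: a site by Magel2 on chromosome 7 (62382478 to 62382838), at a lower percentile of 39.5, with a peak in both control libraries without IAA and neither with IAA. At 15 genes of cohesin and its partners 2 of 146 sites were wild-type-only (1.37%) and 5 mutated-only (3.42%), of which 3 were introns of Stag1, a cohesin subunit. At 11 genes of DNA methylation 2 and 5 of 144 differed (1.39% and 3.47%). One mutated-only site, near the methyltransferase gene Dnmt3b, held the motif and also had a peak in both control libraries without IAA and neither with IAA. At the CHD remodellers and their partners 7 and 8 of 234 differed (2.99% and 3.42%), with 3 wild-type-only intron sites in Chd7. Of the Hox clusters, Hoxb had 2 wild-type-only sites of 23 tested (8.7%), the promoters of Hoxb1 and Hoxb13. Hoxa had 1 mutated-only site of 31 (3.23%), in an intron at Hoxa3, and Hoxc had 0 differing sites of 29. Hoxd had 1 mutated-only site of 21 (4.76%), in an intron at Hoxd3, with a peak in both control libraries without IAA and neither with IAA. The remaining groups had 1 and 3 of 82 sites at genes of primed pluripotency, 0 and 2 of 67 at endoderm and mesoderm regulators, 2 and 1 of 79 at neural regulators, 0 and 3 of 74 at trophoblast regulators, 2 and 1 of 46 at targets of auxin and the aryl hydrocarbon receptor, and 1 and 0 of 7 at genes of the 2-cell stage (wild-type-only and mutated-only).

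Some differing sites were strong and were found in no other library. The most distinct lay at the start of the lincRNA gene Gm40988 and in the zinc-finger gene Zfp640, on chromosome 13 from 66680872 to 66681105. It was at percentile 99.8 and 97.7 in the wild-type line and had no peak in the mutated line or in any of the other 20 libraries of the series. It held no CTCF motif, and 16.2% of its surrounding window was repeat-masked. Gprc5a, a receptor gene, held a mutated-only intron site on chromosome 6 from 135080485 to 135080691, at 69 and 63.9, which was also in none of the 20. Together, 464 of the 4004 wild-type-only sites without motif (11.6%) and 381 of the 3930 mutated-only ones (9.69%) were in none of the 20, and 5 and 1 of these lay above percentile 50. With the motif it was 10 of 381 and 4 of 125, and none of them lay above percentile 50. Of sites called in all 4 libraries, 0.12% without motif and 0.0207% with it were in none of the 20.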

How the data were processed

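ATAC-seq peak lists in the narrowPeak layout were used, 1 per library. Per the submitters' processing notes, Trim Galore, Bowtie2, MACS2 and deepTools were used with the mm10 build. Their versions and settings are not given in the sources used here. The deposited fold is a ratio at the summit, and the deposited −log10 p and −log10 q are the authors' scores within each list. They served here only to rank and filter peaks within a list. Reads were not used here, so depth is unknown and the number of peaks stands in for it.

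Peaks of the 4 lists that shared at least 1 bp were merged into 189760 sites, and the centre of a site was its middle summit. Sites called by at least 2 lists were tested. The CTCF consensus of 14 bp was searched on both strands of GRCm38, the build of mm10, and 10 permuted consensuses served as background. All peaks lay inside the chromosome lengths. Genes came from GENCODE M21. Gene groups were taken within 10 kb of the gene. Shares were compared by exact two-sided permutation of library labels. Named sites were the motif sites with the highest lower percentile, 8 for the wild-type line and 4 for the mutated line, 4 sites without motif in each direction, and the differing sites of the gene lists. Chromosome 18 was left out of the motif and no-motif sites named by percentile. The comparison of motif with no-motif CTCF-dependent sites, and the alternatives for the shares of differing sites without motif, were added after seeing the data. The members, gene lists and motifs were chosen with earlier results of these data known. The steps were tested on simulated data. Python 3.11.15, numpy 2.4.6, pandas 2.3.3, pysam 0.24.0 and samtools 1.23.1 were used. The alternatives were equal list length, a stricter q, other overlap and motif rules, each library left out and the replicate block.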

Additional observations from a re-analysis of the deposited data

How the results depend on the processing

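The larger share of motif peaks in the wild-type line kept its direction in all 12 alternatives and the difference at CTCF-dependent motif sites in all 14. The alternatives with 1 library left out, within a replicate number or in the replicate block could not turn. They reuse library values that did not overlap between the lines. Counts of differing sites rest on both libraries of a line. When 1 library was left out they ranged from 7840 to 21268 (wild-type-only) and from 7758 to 17996 (mutated-only), and between single libraries numbered 1 or 2 they were 27256 and 24459 against 23801 and 24256. The order of the counts turned at equal list length (3263 wild-type-only and 3994 mutated-only sites). With 1 library left out the line with the lone library had the higher count in each case, since it then needs 1 call and the other line 2. With a −log10 q of at least 5 there were 3260 and 2566 (mutated-only 1.42% of motif sites), and with peaks covering at least 50% of the site, where the order turned too, 4600 and 7050 (mutated-only 4.46% of motif sites). The share of motif sites that were wild-type-only was 6.1% without mismatch, 3.32% with at most 2 mismatches and 6.52% with the motif within 50 bp. It ranged from 6.39% to 16.1% with 1 library left out, and was 21.1% and 18.7% within the numbers 1 and 2, in each case of sites with a peak in at least 1 library used. The mutated-only share was 2.3% with at most 2 mismatches, 1.35% within 50 bp, 2.75% to 5.74% with 1 library left out, and 8.62% and 12.9% within the numbers. The promoter difference turned to 0.0449 points at equal list length and ranged from -0.767 to 0.423 with 1 library left out. The summit distance difference turned to 0.5 bp with the motif within 50 bp and ranged from -4 to 1 bp with 1 library left out. The excess of motif over other CTCF-dependent sites turned to -0.18 points with 50% cover. The cause of these turns was not tested.

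The replicate block, a paired analysis by replicate number, cannot change a mean difference. The differences thus stayed at 0.505 points for the motif share, -0.172 for promoters, 13.8 for CTCF-dependent motif sites, -1.5 bp for the summit distance and 4.08 points for the excess, each with an exact p of 0.5, the smallest that 2 pairs allow. The labels do not say that the numbers pair the libraries. Over tested sites the change in call from replicate 1 to 2 correlated at 0.125 between the lines.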
